A study of Gallus gallus with 4 samples.

Results

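The Toll-like receptor genes of chicken were examined in 2 epithelia of the bursa of Fabricius, a pouch of the cloaca where B cells of birds form. Members were the probe sets that name exactly 1 of 10 avian Toll-like receptor genes in the annotation of the array. Of 38535 probe sets, 15 met this rule, and they covered 8 of the 10 genes, out of 13009 genes named on the array: TLR1A, TLR2A, TLR3, TLR4, TLR5, TLR7, TLR15 and TLR21. TLR1B appeared only in 2 probe sets that also name TLR1A. TLR2B is a synonym of the gene now called TLR2, which appeared only in 1 probe set that also names TLR2A. Those 3 probe sets are given below as readings shared by a gene pair.

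RNA came from follicle-associated epithelium (FAE), which overlies the lymphoid follicles, and from interfollicular epithelium (IFE), which lies between them. Both groups held 2 samples from healthy Line-M chicks, 19 days old and kept under specific-pathogen-free (SPF) conditions, and each sample was hybridised to its own single-colour array. Every bursa first lay in black ink for 5 min, which makes the FAE visible. FAE was picked after 5 min in 40 mM EDTA at room temperature and IFE after 30 min at 37 °C, so tissue treatment and epithelium cannot be told apart. Nothing in the labels tells whether replicates are different birds, and the p-values therefore reflect only the spread of these samples, which may be technical. The source name of the IFE samples reads FAE, against their titles and cell type, and the titles were followed.

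Toll-like receptors are membrane proteins whose outer leucine-rich repeats bind microbial molecules and whose inner TIR domain recruits adaptors such as MYD88. The signal runs through IRAK kinases and TRAF6 to NF-kB and interferon regulatory factors, which switch on cytokines, chemokines and feedback inhibitors. In birds the repertoire differs from that of mammals: TLR21 is the receptor for unmethylated CpG DNA, TLR15 is found in birds and reptiles, and the TLR1 and TLR2 genes each exist as a pair of neighbouring copies. Macrophages, heterophils, B cells and epithelial cells of chicken are all known to use such receptors.

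Values are MAS5 signals brought to a common 2% trimmed mean of 500 on every array, called scaled signals here. A probe set was taken as above background on an array where it reached the 95th percentile of 744 unnamed probe sets without the chicken prefix. This gave a background of 53.6 and 54.6 for FAE replicates 1 and 2, and of 57.6 and 81.3 for IFE replicates 1 and 2. Signals of different probe sets are not compared with each other, because their probes bind with different strength. FAE was compared with IFE on the log2 scale with limma over 23063 probe sets that passed a filter on the mean signal, and adjusted p-values are Benjamini-Hochberg values over all of them.

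FAE had higher signal of TLR1A, TLR2A and TLR7, with fitted log2 fold changes of 5.04, 4.20 and 4.06. TLR3 and TLR15 lay on the other side, with lower signal in FAE on all 3 of their probe sets, but by smaller amounts that did not pass the test. TLR21 was moderately higher in FAE without passing, TLR4 and TLR5 were near background, and none of the members was called lower. Of the 11 member probe sets tested, 3 were called higher in FAE, where 5.22% of all tested probe sets were. None was called lower, where 3.01% of all were, although 5 had an unadjusted p under 0.05 in that direction (11.8% of all) and 4 had one in the higher direction (12.2% of all). The other 4 member probe sets were too dim to be tested. The median log2 fold change was -0.44 over the 11 and -0.07 over all tested probe sets. TLR3 and TLR15 entered this median with 3 probe sets each and the other genes with 1, so it does not describe the genes. Averaged per gene, the log2 fold change was -1.03 for both TLR3 and TLR15. It was 0.34 for TLR5, 1.28 for TLR21, 4.06 for TLR7, 4.20 for TLR2A and 5.04 for TLR1A. The filter used the mean of the 4 arrays, so a probe set could enter it through the brighter group alone. In bulk samples, fewer cells of a type and less RNA per cell cannot be told apart.

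**Figure D1:**
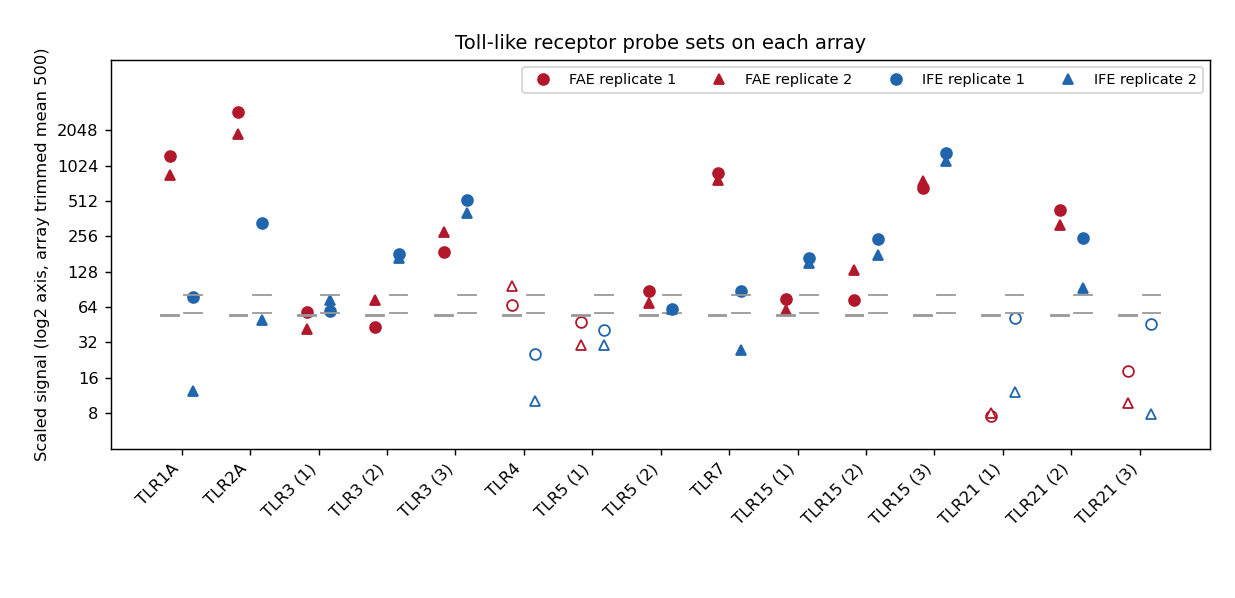
Scaled signal (log2 axis) of the 15 Toll-like receptor probe sets on each of the 4 arrays, FAE in red and IFE in blue, with circles for replicate 1 and triangles for replicate 2. Numbers in brackets count the probe sets of a gene, open symbols mark the 4 probe sets too dim to be tested, and grey dashes are the background levels of the arrays. TLR1A, TLR2A and TLR7 lie between 773 and 2954 in FAE and at or below 332 in IFE.

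Receptors of the TLR1 and TLR2 types pair to recognise bacterial lipopeptides at the cell surface, and which of the chicken copies pair was not examined here. TLR1A had scaled signals of 1229.8 and 848 in FAE replicates 1 and 2, against 77.8 and 12.4 in IFE replicates 1 and 2. The groups were far apart, and the IFE samples differed from each other more than the FAE samples did. The means were 1039 ± 270.0 in FAE and 45.1 ± 46.2 in IFE (SD, n = 2 each). The log2 fold change was 5.04 (SE 0.78, limma adjusted p = 0.0127), with a 95% confidence interval of 3.18 to 6.90. The signal of IFE replicate 2 lay under its background level, so the size of the difference rests partly on a value at background. Measured without that sample the log2 fold change was 3.71, and without IFE replicate 1 it was 6.36, both called. With an offset of 16 added before taking log2 it was 4.33.

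TLR2A had scaled signals of 2954 and 1894 in FAE replicates 1 and 2, against 332 and 50.2 in IFE replicates 1 and 2. Again both FAE samples stood above both IFE samples, and IFE replicate 2 lay under background. The means were 2424 ± 750.1 in FAE and 191.0 ± 199 in IFE (SD, n = 2 each), and the log2 fold change was 4.20 (SE 0.79, limma adjusted p = 0.0248). It was 2.83 without IFE replicate 2 and 5.56 without IFE replicate 1, both called. The TLR1A and TLR2A calls were lost without FAE replicate 1 (adjusted p = 0.0715 and 0.103) and without the intensity trend in the variance prior (0.0717 and 0.103).

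The probe sets shared by a gene pair did not all follow. The probe set annotated to both TLR2 and TLR2A had signals of 244 and 224 in FAE, against 26.4 and 11.8 in IFE. It was not above background on either IFE array, which makes the difference at least 3.42-fold (fitted log2 fold change 3.73, limma adjusted p = 0.0166). The call of this probe set was lost without either FAE replicate (0.369 and 0.203). The probe sets annotated to both TLR1B and TLR1A differed less and were not called with all 4 arrays. The brighter one read 2371 and 2133 in FAE, against 2179 and 1405 in IFE, so the groups overlapped, with a log2 fold change of 0.36 (95% interval -0.32 to 1.04, adjusted p = 0.495). The dimmer one read 433 and 349.6 in FAE, against 379.9 and 199.6 in IFE, and these groups overlapped too, with a log2 fold change of 0.50 (95% interval -0.39 to 1.38, adjusted p = 0.470). Both of these intervals end below 3.18, the lower end of the interval of the probe set that names TLR1A alone. The difference between these probe sets was not itself tested. Without IFE replicate 1 the log2 fold change was 0.68 for the brighter and 0.96 for the dimmer. They were called higher in that fit, which leaves 1 IFE sample. Without IFE replicate 2 it was 0.05 for the brighter and 0.03 for the dimmer. These probe sets and the one that names TLR1A alone carry the suffix that Affymetrix gives to probe sets shared by several transcripts, so signal of one copy cannot be told apart from signal of the other. The TLR7 probe set, the brightest TLR3 probe set and a dim TLR21 probe set carry the same suffix.

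TLR7 senses single-stranded RNA inside endosomes. Its probe set had scaled signals of 888 and 773 in FAE replicates 1 and 2, against 88.5 and 27.7 in IFE replicates 1 and 2. The FAE samples were close to each other, and the groups were well separated. The means were 830.2 ± 81.4 in FAE and 58.1 ± 43.0 in IFE (SD, n = 2 each), and the log2 fold change was 4.06 (SE 0.54, 95% interval 2.79 to 5.34, limma adjusted p = 0.00737). IFE replicate 2 was under background here as well, and the log2 fold change was 3.23 without it and 4.90 without IFE replicate 1. TLR7 was the only one of the 3 called receptors that also passed without each sample in turn, the highest adjusted p being 0.0494 without FAE replicate 1. The call was lost without the intensity trend (0.0509).

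TLR21, the avian CpG DNA receptor, had 3 probe sets, and 1 was above background. That probe set had scaled signals of 434 and 319 in FAE replicates 1 and 2, against 249 and 93.8 in IFE replicates 1 and 2. The groups did not overlap, but the IFE samples were far apart. The log2 fold change was 1.28 (SE 0.48, 95% interval 0.14 to 2.43, limma adjusted p = 0.166), which did not pass. Without IFE replicate 1 it was 1.99 (adjusted p = 0.00330) and without IFE replicate 2 it was 0.58 (0.203), so the size depended on which IFE sample was used. The other probe sets read 7.50 and 8.10 in FAE against 51.5 and 12.1 in IFE, and 18.4 and 9.80 in FAE against 45.8 and 7.80 in IFE. All of these signals lay under background, so no fold is given.

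TLR3, the endosomal receptor for double-stranded RNA that signals through TICAM1, had lower signal in FAE on each of its 3 probe sets. The brightest read 187 and 277 in FAE replicates 1 and 2, against 524 and 409 in IFE replicates 1 and 2. Both FAE samples were below both IFE samples, and all 4 were above background. The log2 fold change was -1.02 (SE 0.32, 95% interval -1.78 to -0.26, limma adjusted p = 0.109). The second probe set read 43.7 and 74.0 in FAE, against 182 and 167 in IFE (log2 fold change -1.62, SE 0.44, adjusted p = 0.0737). FAE replicate 1 was under background on it. The dimmest read 57.9 and 41.6 in FAE, against 59.7 and 74.2 in IFE, close to background in both groups, and its log2 fold change was -0.44 (SE 0.62), which did not pass (adjusted p = 0.714).

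TLR15, which is activated by microbial proteases, showed the same order on its 3 probe sets. The brightest read 661 and 767 in FAE replicates 1 and 2, against 1329 and 1132 in IFE replicates 1 and 2. The groups were separated, and the samples within a group were close. The means were 714 ± 75.2 in FAE and 1231 ± 139.7 in IFE (SD, n = 2 each), and the log2 fold change was -0.78 (SE 0.26, 95% interval -1.40 to -0.17, limma adjusted p = 0.123). Another read 75.3 and 60.9 in FAE, against 168 and 152 in IFE (log2 fold change -1.24, SE 0.39, adjusted p = 0.110). The last read 73.3 and 132 in FAE, against 244 and 176 in IFE (log2 fold change -1.08, SE 0.41, adjusted p = 0.173). All 12 of these signals were above background. Of the 11 tested members, 6 had non-overlapping groups with FAE lower, where 30.5% of all tested probe sets did. These 6 were the TLR3 and TLR15 probe sets. The dimmest TLR3 probe set was separated only by 57.9 in FAE against 59.7 in IFE, close to background. The other 5 tested members had FAE higher without overlap, where 25.4% of all did. Probe sets of 1 gene share their transcript and are not independent readings.

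Because each of these genes had 3 probe sets, their log2 signals were also averaged per gene and fitted over all 10398 genes, an alternative chosen after the values were seen. TLR15 then had a log2 fold change of -1.03 (SE 0.27, limma adjusted p = 0.0588) and TLR3 of -1.03 (SE 0.33, adjusted p = 0.104), and neither passed, where 3.8% of all genes fitted this way were called lower. With each array omitted in turn, the brightest TLR15 probe set ran from -0.90 (IFE replicate 2 omitted) to -0.67 (IFE replicate 1 omitted). The brightest TLR3 probe set ran from -1.31 (FAE replicate 2 omitted) to -0.74 (FAE replicate 1 omitted). Of these fits, both were called lower only in the one that omitted IFE replicate 2, which leaves 1 IFE sample. In that fit more of all tested probe sets were also called lower than with all 4 arrays.

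TLR4 recognises lipopolysaccharide and TLR5 recognises flagellin, and both were near background. The TLR4 probe set read 66.8 and 97.4 in FAE replicates 1 and 2, against 25.3 and 10.2 in IFE replicates 1 and 2. It was above background on both FAE arrays and on neither IFE array, which makes the difference at least 1.18-fold, and it was too dim to be tested. With no filter its log2 fold change was 2.33 (limma adjusted p = 0.199). The brighter TLR5 probe set read 87.8 and 69.5 in FAE, against 61.2 and 62.2 in IFE, with a log2 fold change of 0.34 (95% interval -0.88 to 1.56, adjusted p = 0.735). The dimmer one read 47.6 and 30.2 in FAE, against 41.1 and 30.2 in IFE, under background on all 4 arrays. A difference in TLR5 was thus not detectable at these signals.

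**Figure D2:**
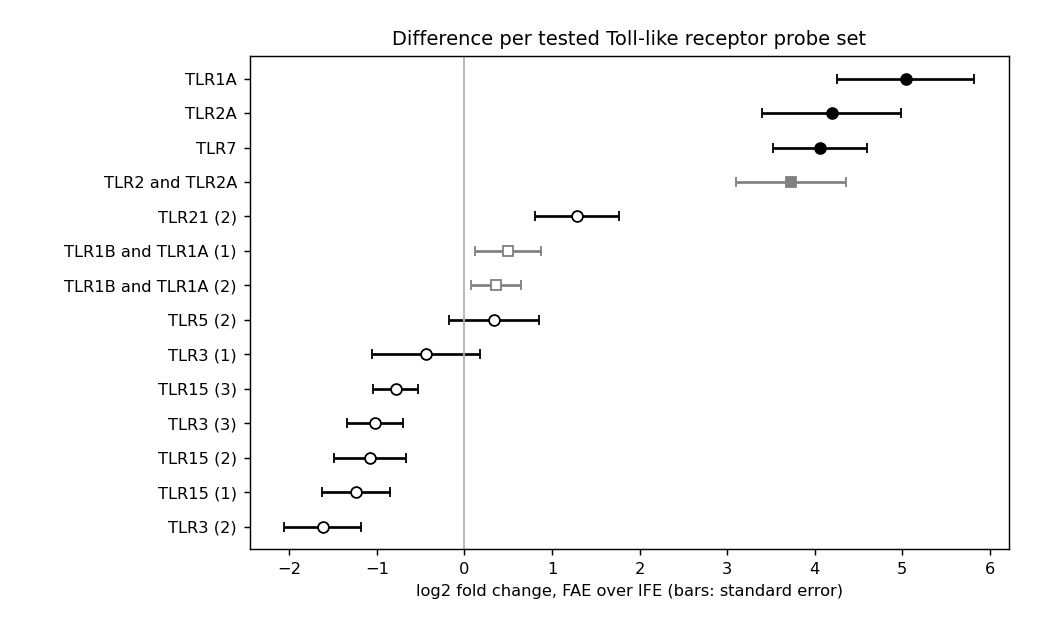
Log2 fold change, FAE over IFE, of each tested Toll-like receptor probe set, with bars of 1 standard error, where filled symbols have a limma adjusted p under 0.05. Black circles are the 11 members tested and grey squares the 3 probe sets that name a gene pair. TLR1A, TLR2A and TLR7 lie above 4 and the TLR3 and TLR15 probe sets below 0.

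Among the tested member probe sets, those of TLR1A, TLR2A, TLR7 and TLR21 differed most between the IFE samples. For TLR1A and TLR2A the signal of IFE replicate 1 was 6.27 and 6.61 times that of IFE replicate 2. For TLR7 and the brightest TLR21 probe set it was 3.20 and 2.65 times. The IFE replicate 2 signals of TLR1A, TLR2A and TLR7 (12.4, 50.2 and 27.7) lay under that array's background of 81.3. The ratios of these 3 receptors therefore rest on values at background, and their size is uncertain. A difference of at least the TLR1A or TLR2A size, in either direction, was found for 2.02% and 1.90% of all tested probe sets. The brightest TLR3 and TLR15 probe sets differed by 1.28 and 1.17 times. The ratio was 0.98 for the tested TLR5 probe set, which was also higher in FAE without passing. It was 4.26 and 5.87 for the dim TLR21 probe sets, whose signals all lay under background. Between the FAE samples the fold of replicate 1 over replicate 2 was 1.45 for TLR1A, 1.56 for TLR2A and 1.15 for TLR7. Over all tested probe sets the median absolute log2 difference was 0.25 between FAE samples and 0.48 between IFE samples. IFE replicate 2 also had the highest 3'/5' ratio of beta-actin signal, 31.2 against 14.4 to 18.6 on the other arrays, and the highest background level. Whether RNA quality had a part in these differences was not tested.

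**Figure D3:**
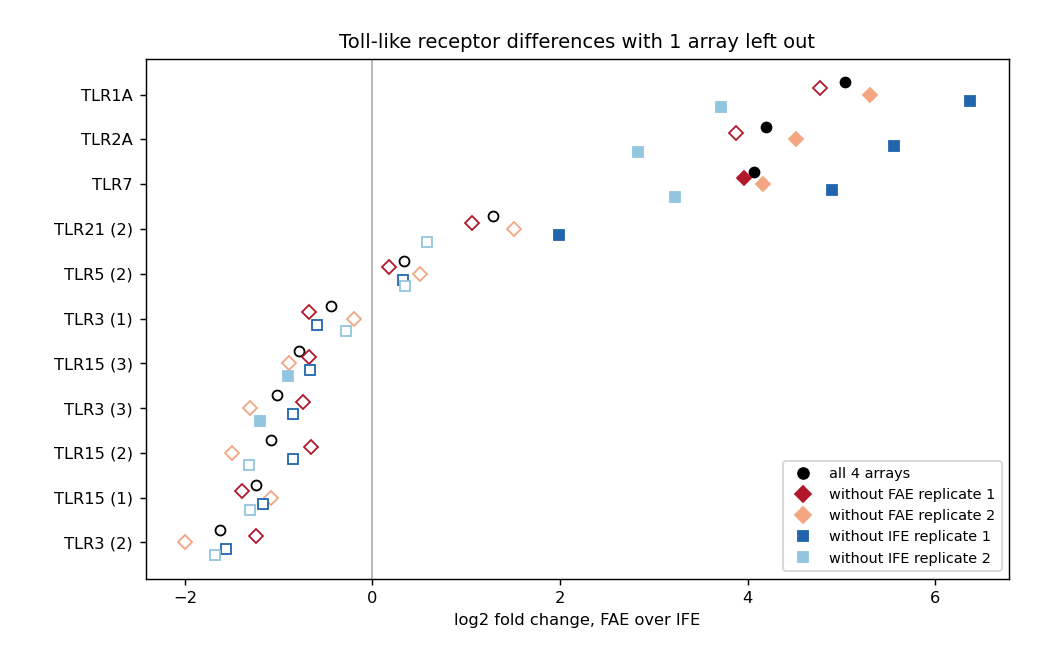
Log2 fold change, FAE over IFE, of the 11 tested Toll-like receptor probe sets with all 4 arrays and with each array left out in turn, where filled symbols have a limma adjusted p under 0.05. The TLR1A values run from 3.71 without IFE replicate 2 to 6.36 without IFE replicate 1, and no probe set changes sign.

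The genes nearest in pattern to each called receptor were found by the Euclidean distance between log2 signals centred over the 4 arrays, among 10112 named genes. Nearest to TLR1A were IL2RG, the common chain of several interleukin receptors (distance 0.50), STAP1, an adaptor of B cell receptor signalling (0.53), and FDPS, an enzyme of isoprenoid synthesis (0.62). STAP1 was also nearest to TLR2A (0.44), before the glycosyltransferase gene GCNT7 (0.50) and the matrix gene EMILIN2 (0.53). Nearest to TLR7 were APOA1, the main apolipoprotein of high-density lipoprotein (0.26), ARPC1B, a subunit of the actin-nucleating Arp2/3 complex (0.31), and the lysosomal amidase gene NAAA (0.34). Likeness over 4 arrays is a description of these samples only.

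Proteins that deliver ligands to the receptors or escort them leaned towards FAE. Of 10 such genes listed, 7 were on the array and 6 were tested. Of these, 2 were called higher and none lower, where 6.31% and 3.95% of all genes were. At an unadjusted p under 0.05 these numbers were 5 and 0, where 12.2% and 11.8% of all tested probe sets were. The other 4 had positive fold changes that did not pass. The median log2 fold change was 1.76, against -0.07 over all genes. CD36, a scavenger receptor that helps TLR2 with lipids in mammals, had signals of 2722 and 1717 in FAE, against 272 and 172 in IFE (log2 fold change 3.32, SE 0.36, limma adjusted p = 0.00384). A second CD36 probe set gave 2.85 (adjusted p = 0.0146). LY96, known as MD-2 and the lipopolysaccharide-binding partner of TLR4, had signals of 653 and 447 in FAE, against 99.8 and 25.9 in IFE (log2 fold change 3.41, SE 0.62, adjusted p = 0.0220). On IFE replicate 2 LY96 was under background, the log2 fold change was 2.44 without that sample and 4.38 without IFE replicate 1, and it no longer passed without FAE replicate 1 (0.151) or FAE replicate 2 (0.0553).

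The remaining accessory genes did not pass. LBP, which carries lipopolysaccharide in plasma, had a log2 fold change of 1.99 (limma adjusted p = 0.131), and LY86, known as MD-1, had 1.53 (0.0733). UNC93B1, which brings endosomal receptors such as TLR3 and TLR7 out of the endoplasmic reticulum, had 1.11 (0.225). It read 1350 and 1163 in FAE, against 995 and 338 in IFE, so the groups did not overlap and IFE replicate 2 was again the lowest. HSP90B1, the chaperone that folds these receptors, had 0.60 (0.169), while its dimmer probe set gave 1.27 and passed (0.0450). CD180, a relative of the receptors found on mammalian B cells, was under background on all 4 arrays.

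The adaptors and first kinases had a median near 0, with single members on both sides of it. All 12 adaptor and kinase genes found on the array were tested, of 15 listed, with a median log2 fold change of 0.11. Of them, 1 was called higher and none lower, where 6.31% and 3.95% of all genes were. At an unadjusted p under 0.05, 2 were higher and 1 was lower, where 12.2% and 11.8% of all tested probe sets were. MYD88, the adaptor that most of these receptors share, read 7414 and 7070 in FAE, against 7165 and 6213 in IFE, and the groups overlapped, with a log2 fold change of 0.12 (limma adjusted p = 0.770). TIRAP, which links TLR2 and TLR4 to MYD88, had 0.10 (0.847), TICAM1, the TLR3 adaptor, 0.30 (0.554) and IRAK4, the first kinase, 0.09 (0.873). UBE2N, the ubiquitin-conjugating partner of TRAF6, had 0.05 (0.912) and IRAK2 had 0.68 (0.209). The ubiquitin ligases PELI2 and PELI3 had 0.30 and -0.26, and neither passed.

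PIK3AP1, an adaptor also called BCAP and used by B cells and macrophages, was the called member, with 2619 and 2237 in FAE, against 769.9 and 826 in IFE (log2 fold change 1.60, SE 0.25, limma adjusted p = 0.0120). It did not pass without FAE replicate 1 (0.269) or FAE replicate 2 (0.124). SARM1, a TIR protein that restrains TICAM1 signalling in mammals, had -1.47 (0.0541). Probe sets disagreed for TRAF3, which acts in the interferon arm: its brightest gave 1.25 (0.0750), another 1.85 (0.00887) and the dimmest 0.69 (0.238). They also disagreed for TRAF6, at -0.31 (0.448) on the brightest and -1.52 (0.0401) and -0.22 (0.730) on the others.

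The NF-kB and interferon regulatory factor arm had a median log2 fold change of -0.07 over 16 tested of 19 listed genes. Of them, 1 was called lower, where 3.95% of all genes were called lower and 6.31% higher. IRF1, a factor induced by interferon, was the called member and was lower in FAE, with 8314 and 6967 in FAE, against 14995 and 13137 in IFE (log2 fold change -0.88, SE 0.20, limma adjusted p = 0.0444). It did not pass without FAE replicate 1 (0.318) or FAE replicate 2 (0.383). None of the 16 was called higher, or had an unadjusted p under 0.05 in that direction, where 12.2% of all tested probe sets did. The NF-kB subunit NFKB1 at 0.10 and IRF7, which stands in for the missing IRF3 in chicken, at -0.21 did not pass.

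Inhibitors of the pathway moved in both directions. Of 12 tested of 15 listed, 1 was called higher and 2 lower, where 6.31% and 3.95% of all genes were. The median log2 fold change was -0.03. SOCS1, a suppressor of cytokine signalling, had 1048 and 723 in FAE, against 213 and 223 in IFE (log2 fold change 2.00, SE 0.30, limma adjusted p = 0.0109). The stress-induced repressor ATF3 had -1.47 (SE 0.28, adjusted p = 0.0248) and NFKBIZ, a nuclear NF-kB regulator, -1.12 (SE 0.25, adjusted p = 0.0405). None of the 3 passed without FAE replicate 1 (0.181, 0.344 and 0.344) or without FAE replicate 2 (0.0508, 0.116 and 0.211). TNFAIP3 at 0.20 and TOLLIP at 0.25 were among the 9 that did not pass. The probe sets of NFKBIE disagreed, at 0.91 (0.133) on the brightest and -2.69 (0.0221) on another that was under background in FAE.

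Among genes that the receptors can switch on, 18 of 27 listed were tested, with a median log2 fold change of -0.17. Of them, 3 were called higher in FAE and 1 lower, where 6.31% and 3.95% of all genes were. IL1B, a pyrogenic cytokine, had signals of 4988 and 3049 in FAE, against 391 and 31.8 in IFE, again with IFE replicate 2 under background (log2 fold change 5.13, or 3.32 without IFE replicate 2 and 6.94 without IFE replicate 1). IL18, the interferon-gamma-inducing cytokine, read 2790 and 1729 in FAE, against 406 and 341 in IFE (log2 fold change 2.56, SE 0.31, limma adjusted p = 0.00580). Its dimmer probe set gave 1.58 and did not pass (0.222). The chicken interleukin-8 relatives went apart. IL8L1 read 408 and 359.6 in FAE, against 46.6 and 57.5 in IFE, under background in IFE, which makes it at least 5.60-fold higher in FAE (adjusted p = 0.00503). IL8L2 read 1539 and 1938 in FAE, against 6163 and 9873 in IFE (log2 fold change -2.18, SE 0.29, adjusted p = 0.00785). The groups did not overlap for any of these 4 genes, which were named because they were called. Over all tested probe sets, 25.4% had FAE higher without overlap and 30.5% had FAE lower. All 4 calls were lost without FAE replicate 1 (adjusted p between 0.0833 and 0.108) and held with any other sample left out.

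Among the receptors outside the family, no TIR-domain receptor of the interleukin-1 group was called by limma, of 5 tested and 9 listed. Over all genes, 6.31% were called higher and 3.95% lower. At an unadjusted p under 0.05, 1 of these receptors was higher and 1 lower, where 12.2% and 11.8% of all tested probe sets were. Of 10 other pattern recognition genes tested (17 listed), TMEM173, the STING adaptor of cytosolic DNA sensing, was called higher in FAE. It read 719 and 616 in FAE, against 261 and 180.0 in IFE (log2 fold change 1.62, SE 0.30, adjusted p = 0.0246), but did not pass without FAE replicate 1 (0.298) or FAE replicate 2 (0.143). The probe sets of TREM2, a myeloid lipid receptor, disagreed in the call, at 1.25 (0.175) on the brightest and 3.84 (0.0166) on another. The latter read 10.8 and 26.7 in IFE, under background on both arrays, so the size of its difference rests on values at background.

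**Figure D4:**
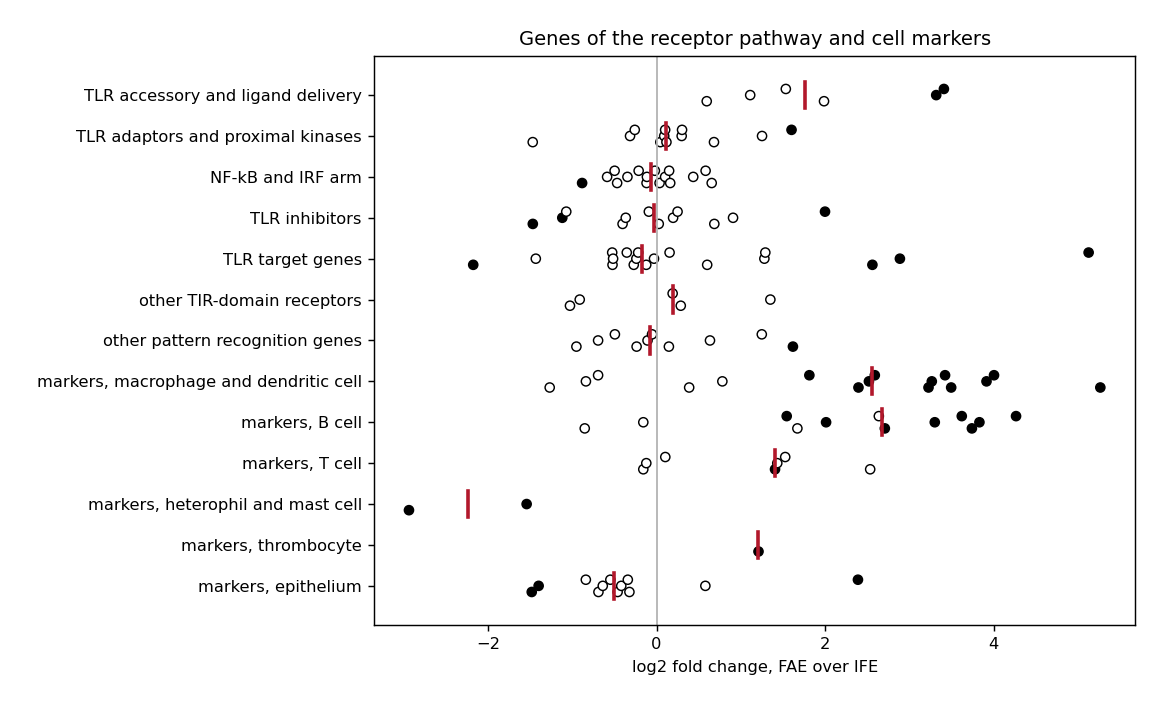
Log2 fold change, FAE over IFE, of each tested gene of 7 pathway lists and 6 cell marker lists, where filled circles have a limma adjusted p under 0.05 and red bars are the list medians. The accessory, macrophage and B cell lists have medians of 1.76, 2.56 and 2.67, and the adaptor list has 0.11.

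Most tested markers of macrophages, dendritic cells and B cells were higher in FAE, with positive log2 fold changes for 13 of 16 and 10 of 12. Over all genes, 6.31% were called higher and 3.95% lower. At an unadjusted p under 0.05, 12.2% of all tested probe sets were higher and 11.8% lower. For macrophages and dendritic cells, 11 of 16 tested markers (21 listed) were called higher in FAE and none lower (12 and 2 at an unadjusted p under 0.05), and the summed signal of the list was 140604 and 138058 in FAE, against 75654 and 63146 in IFE. For B cells, 8 of 12 tested markers (17 listed) were higher and none lower (10 and 0 at an unadjusted p under 0.05), with sums of 38648 and 41387 in FAE, against 10033 and 7535 in IFE. The sums of both lists were lowest on IFE replicate 2, but they rest mostly on a few bright members. Their brightest members were the cathepsin gene CTSS, the endocytic receptor gene LY75 and the protease gene LGMN for macrophages and dendritic cells, and CD72, BCL6 and JCHAIN for B cells. Single markers went either way between IFE replicates 1 and 2, and the lists leaned apart. Of the tested macrophage and dendritic cell markers, MARCO, LY75, C1QA, C1QB and C1QC were higher on IFE replicate 2 and the others on IFE replicate 1. Of the tested B cell markers, BTK, CD72, POU2AF1 and BCL6 were higher on IFE replicate 1 and the others on IFE replicate 2. CTSS read 21529 and 10911 on IFE replicates 1 and 2, and CD72 read 3267 and 811. C1QB read 78.2 and 107 there, and JCHAIN read 114 and 503. LGMN had a log2 fold change of -0.84, IRF8 of -1.27 and MARCO of -0.69, and none of them passed (limma adjusted p = 0.0621, 0.0719 and 0.325). The B cell markers PAX5 and BCL6 had -0.85 and -0.16 and did not pass either (0.315 and 0.713). SPI1, a transcription factor of both lineages, read 20655 and 20348 in FAE, against 2161 and 2100 in IFE. The dendritic cell marker XCR1 and the B cell marker CXCR5 were under background on all 4 arrays.

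Other blood cell lists were thin, and their counts stand beside 6.31% of all genes called higher and 3.95% called lower. T cell markers, of which CD3E, CD3D and CD247 were the brightest, had 1 of 7 tested members higher (12 listed), with sums of 4939 and 4222 in FAE, against 2454 and 1883 in IFE. Of 11 heterophil and mast cell markers listed, 4 were on the array and 2 were tested, and both were lower in FAE. They were the antimicrobial peptide gene CATH1 at -2.94 (limma adjusted p = 0.00338) and the stem cell factor receptor KIT at -1.54 (0.0293). The KIT call was lost without either FAE replicate, while the CATH1 call held with each sample left out. The lysozyme gene LYG2 was too dim to be tested and lay the other way, with 96.8 and 86.5 in FAE, above background, against 3.90 and 9.80 in IFE, under background, which makes it at least 1.34-fold higher in FAE. The heterophil marker CSF3R was under background on all 4 arrays. Of 9 thrombocyte markers, ITGB3 was the only one tested, while GP9 and FGA were too dim. ITGB3 was higher in FAE, at 1.20, with a limma adjusted p of 0.0472, close to the threshold. Its call was lost without either FAE replicate.

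Epithelial markers were present in both groups, with summed signals of 85078 and 105728 in FAE, against 144862 and 155279 in IFE. Of 12 tested (18 listed), 1 was called higher and 2 lower in FAE, where 6.31% and 3.95% of all genes were. At an unadjusted p under 0.05, 1 was higher and 5 were lower, where 12.2% and 11.8% of all tested probe sets were. The median log2 fold change was -0.50. The brightest were EPCAM, CDH1 and KRT7. They had log2 fold changes of -0.55, -0.64 and -0.46, which did not pass (limma adjusted p = 0.134, 0.114 and 0.174). VIL1 was the marker called higher, at 2.39 (adjusted p = 0.00857). ELF3 at -1.48 (0.00895) and CDH17 at -1.40 (0.0397) were those called lower. The lists share MARCO, a macrophage receptor counted also among the pattern recognition genes. The part of cell content in the receptor differences was not tested.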

How the data were processed

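The authors deposited 1 table of linear array intensities, 1 column per array. The submitters' processing notes name MAS5, with a version that is not given in the sources used here. The median of each column is 1 and its minimum 0.01, and at least 99.8% of its values above that are whole multiples of 0.1 once the array median is read back as 73.4, 79.9, 78.0 or 89.9 (tolerance 0.05 steps). The precision is limited by the number of arrays, 2 per group. Of 38535 probe sets, 96 controls were left out. Genes were named from the platform annotation, with symbols updated through the Entrez ID to the assembly bGalGal1.mat.broiler.GRCg7b, and no coordinates were used.

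Each array was scaled to a 2% trimmed mean of 500 and log2 was taken with no offset. Probe sets with a mean over the 4 arrays at or above the 40th percentile (55.5) were tested, 23063 in all, with lmFit and eBayes with an intensity trend (limma 3.58.1, R 4.3.3), two-sided, at an adjusted p of 0.05. A gene was represented by its brightest tested probe set, and 10398 genes had one. A gene on the array was found for 151 of 200 listed. Where both arrays of a group were under background, a lower bound of the fold was computed against the background level. The fit was tested on simulated data. An exact permutation test of 2 against 2 samples cannot go below 0.333 and was not used.

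Named genes are every member probe set, all accessory and adaptor genes, up to 6 called members of each pathway list, the 3 brightest genes of each marker list and the 3 genes nearest to each called receptor. Genes whose probe sets disagreed, uncalled examples, called epithelial markers, SPI1, markers compared between the IFE samples and background-level markers were named outside that rule. This was done after their values were seen. The members and lists were chosen with earlier results of these data known. No pairing of the samples by the replicate numbers in the titles was seen (correlation of same-numbered deviations 0.02). This rests on 1 difference per group and cannot tell whether same-numbered samples share a bird. Alternatives were quantile normalization, the common median, an offset of 16, no filter, a filter at the 60th percentile, no trend, a replicate block and each sample left out, with the set of tested probe sets kept where the filter was not the choice.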

Additional observations from a re-analysis of the deposited data

How the results depend on the processing

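The count of member probe sets called, 3 with all samples, was 3 with quantile normalization, the common median, the offset, no filter, the filter at the 60th percentile and the replicate block. It was 0 with no intensity trend and between 1 and 5 with each sample left out, the lowest without FAE replicate 1. Over all tested probe sets, 1899 were called, 63.4% of them higher in FAE. This was 551 with no intensity trend (81.5% higher), between 248 and 6157 with each sample left out (81.5% higher without FAE replicate 1), and 2623 with the replicate block. Over all genes, 6.31% were called higher and 3.95% lower. Of 79 pathway genes tested, 12 were called. This was 3 with no intensity trend, 19 with the replicate block and between 1 and 30 with each sample left out. The block fit has 1 residual degree of freedom and changed the call of no member, and no pairing of the samples by replicate number was seen. None of the 11 tested member probe sets changed sign under any of these alternatives, and the 4 dim ones were fitted only with no filter. With the common median the median log2 fold change of all probe sets was 0.06, against -0.07. With 1 sample left out, the lone sample of its group is assumed to vary like the other group. The cause of these changes was not tested. Signals near the background level limit TLR4, TLR5 and the dimmer TLR3 and TLR21 probe sets.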
